A study of Homo sapiens with 6 samples.

Results

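The genes described here were almost without reads in C4-2B and carried reads in each RC4-2B library. A protein-coding gene was included when its raw count was at most 3 in every C4-2B library, when its mean raw count over RC4-2B was at least 10, and when each RC4-2B library held at least 4 of its reads. ABCB1, which also met these limits, was left out by choice. Of 19951 protein-coding genes in the table, 5 remained: BOLA2B, ZG16, DLGAP2, MALRD1 and LDLRAD1. The 5 genes were thus chosen by the raw counts of both lines, so their difference between the lines is a description and no test of it is given.

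C4-2B is an established human cell line of castration resistant prostate cancer (CRPC). RC4-2B is a cabazitaxel (CBZ)-resistant subclone of it, made in cycles of 72 h of CBZ at rising concentrations, from 0.1 nM to 20 nM, over 4 months; CBZ is a taxane, a drug that stabilises microtubules. Both lines were grown for 72 h before isolation of total RNA, in medium with 10% fetal bovine serum (the study's methods also name charcoal-stripped serum), and no drug is named for that time. Each line gave 3 libraries, labelled as biological replicates, and nothing says how far apart these cultures were, so a p-value here measures the spread between these libraries only. RC4-2B is 1 subclone, and a property of that subclone cannot be told apart from a property of resistance. All 8 luminal prostate markers examined, among them KLK3, EPCAM and KRT8, were above 3 counts in at least 1 library, with a summed level of 3450 to 3570 CPM (counts scaled to a common library size) in C4-2B against 2557 to 2991 CPM in RC4-2B. Library totals were 17018288 to 17642148 counts in C4-2B and 15707134 to 18052517 counts in RC4-2B. RC4-2B replicate 2 stood apart: its chi-square per gene against the other libraries of its line was 65.4 and 50.4, beside 14 between those others and 3.38 to 7.85 within C4-2B (library by library comparison of the counts).

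A gene without transcripts in a cell line can be kept so by DNA methylation of a CpG-rich promoter, by repressive chromatin, or by the absence of the transcription factors that its promoter needs. Promoters with many CpG dinucleotides tend to serve broadly used genes, and CpG-poor promoters tend to serve tissue-restricted genes. The 5 genes have different known roles. BOLA2B encodes a BolA-family protein that works with glutaredoxins in the handling of iron-sulfur clusters. ZG16 encodes a secreted lectin-like protein first known from pancreatic zymogen granules and abundant in intestinal mucus. DLGAP2 encodes a scaffold protein of the postsynaptic density of neurons. MALRD1 encodes a protein with MAM and LDL-receptor class A domains that is linked to intestinal FGF19 and bile acid metabolism. LDLRAD1 encodes a membrane protein with LDL-receptor class A domains.

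The reference promoter windows of 3 of the 5 genes are shown because they hold an annotated start of each transcript and differ in their CpG content. Each window runs from 250 bases before to 50 bases after a transcription start in RefSeq (build GRCh38.p14), is written 5′ to 3′ on the gene's strand, and has every CpG in capitals. The BOLA2B window is chr16:30193617-30193916 on the minus strand, inside the longer gene model of the deposited table, the MALRD1 window is chr10:19048551-19048850 on the plus strand, and the LDLRAD1 window is chr1:54018137-54018436 on the minus strand.
BOLA2B: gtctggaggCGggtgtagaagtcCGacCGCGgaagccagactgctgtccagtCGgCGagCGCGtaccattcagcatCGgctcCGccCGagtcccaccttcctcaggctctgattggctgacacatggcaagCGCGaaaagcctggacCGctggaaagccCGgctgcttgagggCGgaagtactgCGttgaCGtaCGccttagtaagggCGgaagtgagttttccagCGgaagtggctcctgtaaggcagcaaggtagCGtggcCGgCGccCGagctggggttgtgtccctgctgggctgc
MALRD1: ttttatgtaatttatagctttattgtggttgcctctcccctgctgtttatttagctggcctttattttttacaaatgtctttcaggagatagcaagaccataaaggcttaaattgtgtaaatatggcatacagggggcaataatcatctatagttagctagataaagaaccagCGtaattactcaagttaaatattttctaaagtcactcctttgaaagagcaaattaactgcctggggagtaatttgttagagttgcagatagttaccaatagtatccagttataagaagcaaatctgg
LDLRAD1: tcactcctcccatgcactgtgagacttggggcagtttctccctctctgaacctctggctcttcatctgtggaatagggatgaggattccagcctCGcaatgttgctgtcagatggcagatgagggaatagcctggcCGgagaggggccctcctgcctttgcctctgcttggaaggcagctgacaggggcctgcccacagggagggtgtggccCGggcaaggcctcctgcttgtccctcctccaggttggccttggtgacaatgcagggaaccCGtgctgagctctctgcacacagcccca

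The BOLA2B window held 25 CpG, with 63.3% GC and an observed/expected CpG ratio of 0.84. The windows of MALRD1 and LDLRAD1 were CpG-poor: 1 CpG, 34.3% GC and a ratio of 0.11 for MALRD1, and 4 CpG, 60.7% GC and a ratio of 0.14 for LDLRAD1. Over 21021 such windows of protein-coding genes, the medians were 21 CpG, 62.7% GC and a ratio of 0.74. Of these windows, 5.999% held no more CpG than that of MALRD1, 17.96% no more than that of LDLRAD1, and 41.92% at least as many as that of BOLA2B. With CpG-rich defined as a ratio of at least 0.6 and at least 50% GC, 1 of the 3 windows was CpG-rich, beside 60.69% of all windows. LDLRAD1 had the GC content of a typical window and few of its CpG.

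Short motifs were searched on both strands of each window. The letters TATAAA of the TATA box were found in the MALRD1 window alone, and in 9.257% of all windows. The single match in MALRD1 is on the strand opposite the gene, where the printed sequence reads tttata, near the 5′ end of the window and far from the start. The letters CCAAT of the CCAAT box were found once in BOLA2B and once in MALRD1, and in 34.66% of all windows. The letters GGGCGG of the GC box were found 3 times in the BOLA2B window and in neither of the others, beside 56.97% of all windows. The LDLRAD1 window held none of these letters. A match describes the letters in the window and is not evidence of binding.

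**Figure D1:**
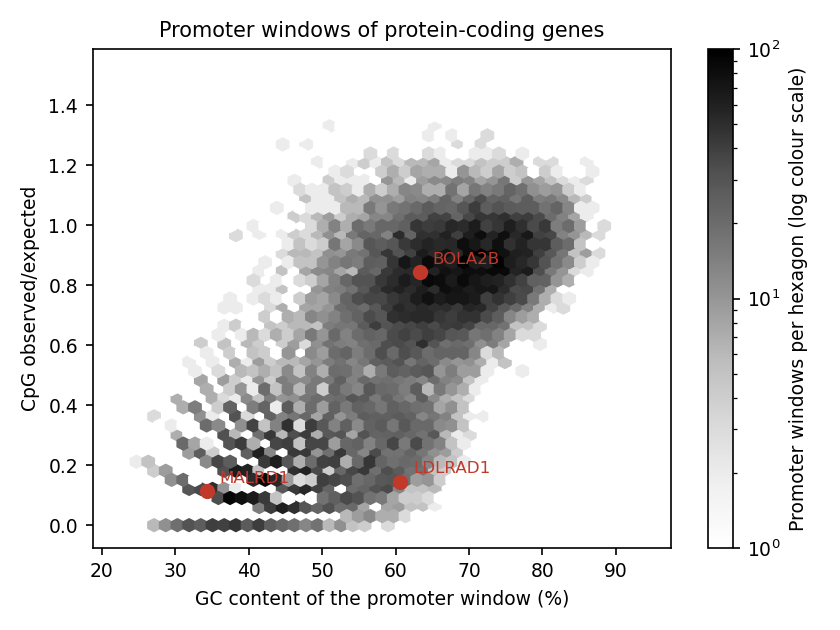
GC content in percent (x axis) against observed/expected CpG ratio (y axis) for 300-base promoter windows of protein-coding genes, with the number of windows per hexagon on a log grey scale and the 3 windows shown here as red points. BOLA2B lies among the dense cloud of CpG-rich windows at a ratio of 0.84, and MALRD1 and LDLRAD1 lie at its foot, at 0.11 and 0.14.

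The 5 genes were rare exceptions. With ABCB1 left out, at most 3 counts in every C4-2B library were found for 5999 protein-coding genes (30.07%), and 5598 of these (93.32%) also had at most 3 counts in every RC4-2B library. At least 4 counts in some RC4-2B library were reached by 401 of them (6.684%) and in every RC4-2B library by 32 (0.5334%). The 5 genes were 0.0833% of the 5999. With both lines exchanged, 25 of 6024 genes (0.415%) met the same limits, that is, at most 3 counts in every RC4-2B library and a mean of at least 10 in C4-2B. Mean counts in the line with reads were 10.0 to 19.33 for the 5 genes, with a median of 10.67, and 10.0 to 272.7 for the 25, with a median of 17.67. The first set lacks ABCB1, left out by choice, which had 0, 1 and 0 counts in C4-2B and 10742, 15948 and 13179 counts in RC4-2B, while nothing was left out of the second, so their levels are not compared. The difference between the 5 and the 25 was not tested. Both counts depend on single libraries: without 1 library at a time the 5 became 10 (C4-2B replicate 1 or 2 left out), 13 (C4-2B replicate 3 left out) or 8 (RC4-2B replicate 1 or 3 left out), and the 25 became at most 41 (RC4-2B replicate 1 left out).

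All 5 genes had few reads in RC4-2B as well. Over the 15 values in C4-2B, the highest was 3 counts, 6 were 0, and the sum was 20. Over the 15 values in RC4-2B the counts ran from 5 to 23 and summed to 197. The RC4-2B level, as TMM-scaled CPM, was 3.395 to 6.6 times the level of 3 counts in C4-2B, with a median of 3.629. In these bulk RNA samples, a few cells with many transcripts and many cells with few transcripts cannot be told apart.

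**Figure D2:**
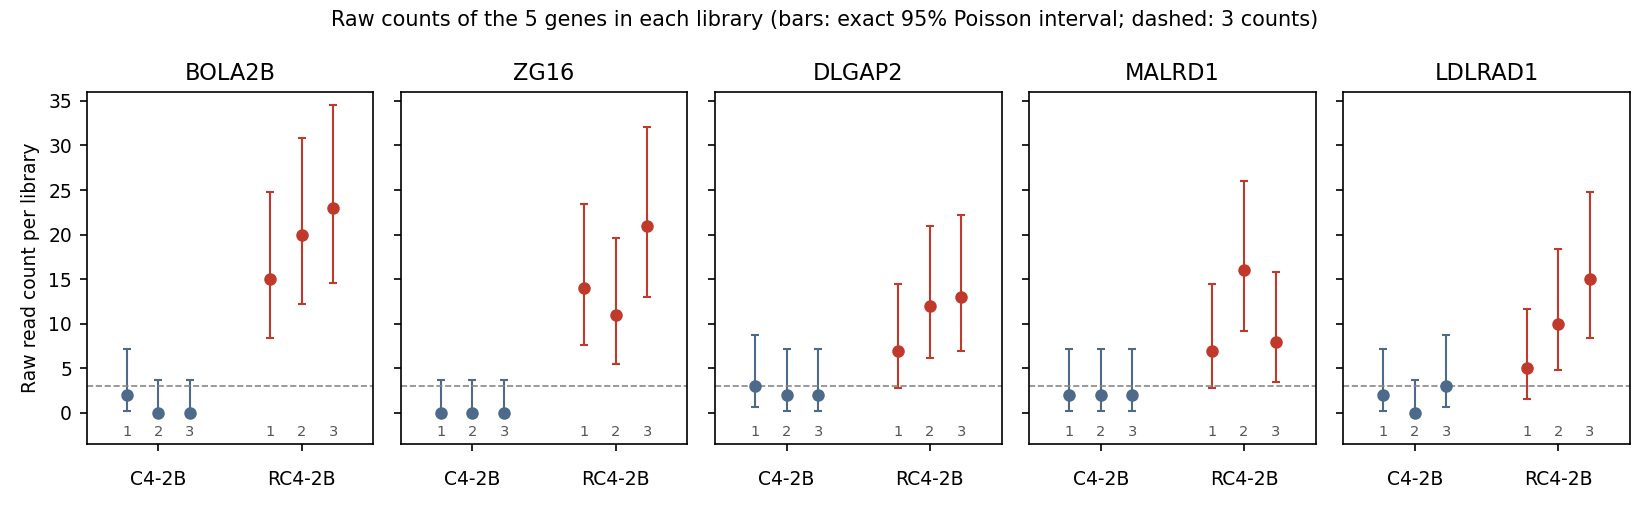
Raw read count per library (y axis) of the 5 genes in the 3 C4-2B (blue) and the 3 RC4-2B (red) libraries, with exact 95% Poisson intervals as bars and a dashed line at 3 counts. Every C4-2B point lies at or under 3 counts and every RC4-2B point at or above 5, and several intervals of DLGAP2, MALRD1 and LDLRAD1 overlap between the lines.

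The Poisson bars cover counting error only, since no molecular identifiers are named, and reads copied by PCR are not independent molecules. Neither these bars nor the intervals of the ratios below allow for the choice of the 5 genes by the same counts. Non-overlap of the 3 against 3 raw counts was required by the rule; among 15054 genes tested, 10.2% did not overlap with RC4-2B the higher. The 5 genes are described in the order of their RC4-2B level in CPM.

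BOLA2B (ENSG00000169627, chr16:30192934-30194306, minus strand, build GRCh38) had the highest counts of the 5. It had 2, 0 and 0 counts in C4-2B replicates 1 to 3 and 15, 20 and 23 counts in RC4-2B replicates 1 to 3. The single C4-2B library with reads lay far below the lowest RC4-2B library. Its TMM-scaled level went from 0.0398 ± 0.0689 CPM in the parental line to 1.14 ± 0.207 CPM in RC4-2B (SD, n = 3 each). The ratio of the summed counts, scaled for depth, was 29.8, with a 95% counting interval from 7.89 to 252.1. Per length, the deposited FPKM was 0.026 ± 0.045 in C4-2B and 0.764 ± 0.141 in RC4-2B (SD, n = 3 each), and 47.33% of protein-coding genes had a lower RC4-2B mean. The spread over the RC4-2B libraries (SD 4.04 counts) was near that of counting alone (4.4 counts), and its coefficient of variation of 18.1% was the lowest of the 5 genes.

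The sequence of BOLA2B is not its own. BOLA2B has 2 exon blocks in the GENCODE 44 annotation, and all of its 1169 exonic windows of 100 bases were found again elsewhere in the genome. All 1169 lay within BOLA2 (chr16:29443056-29454964), 955 of them (81.7%) within BOLA2-SMG1P6 and 465 (39.8%) within SLX1B. The promoter window shown above also shares an identical run of 273 bases with a window of BOLA2. A stretch of 100 bases from its exons therefore cannot be placed on BOLA2B by sequence, and how the authors' counting treated such reads is not given in the sources used here.

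The counts of BOLA2-SMG1P6 and BOLA2 stand beside those of BOLA2B. BOLA2-SMG1P6 had 10, 13 and 16 counts in C4-2B and 15, 8 and 6 counts in RC4-2B. BOLA2 had 0, 0 and 2 counts in C4-2B and none in RC4-2B. Summed over BOLA2B, BOLA2 and BOLA2-SMG1P6, the libraries held 12, 13 and 18 counts in C4-2B and 30, 28 and 29 counts in RC4-2B. SLX1B, which shares part of the sequence, is left out of the sum, and its counts are not given here. This sum was 0.826 ± 0.173 CPM in the parental line against 1.73 ± 0.141 CPM in RC4-2B (SD, n = 3 each), a difference of 0.9 CPM without overlap. The sum contains a gene chosen for this contrast, so no test is given. Of the reads on BOLA2-SMG1P6, the table does not show which lie in sequence shared with BOLA2B.

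**Figure D3:**
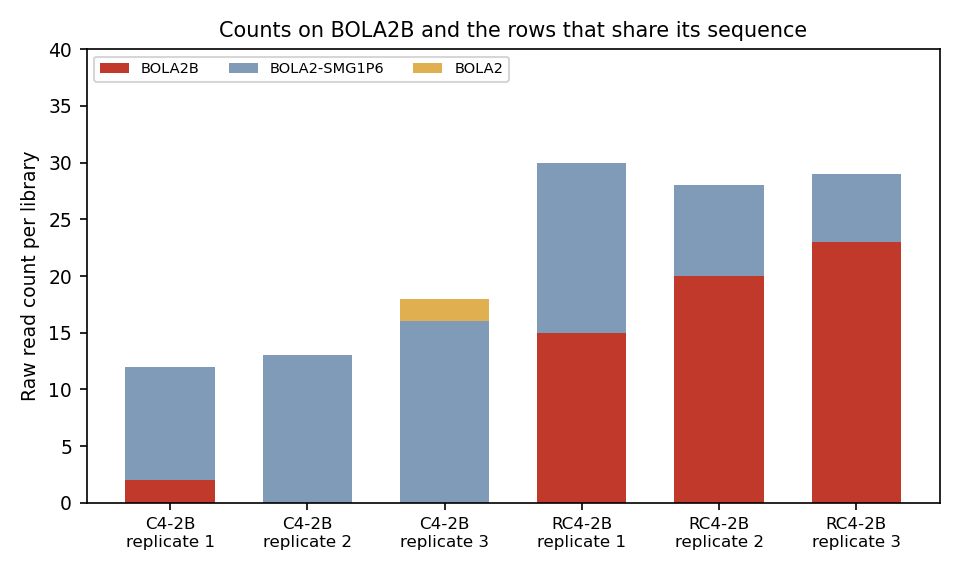
Stacked raw read counts per library (y axis) on BOLA2B (red), BOLA2-SMG1P6 (blue) and BOLA2 (yellow) in the 6 libraries. SLX1B is not drawn. The stacks reach 12, 13 and 18 counts in C4-2B, mostly BOLA2-SMG1P6, and 30, 28 and 29 counts in RC4-2B, with 15, 20 and 23 of them on BOLA2B.

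ZG16 (ENSG00000174992, chr16:29778240-29782973, plus strand) was the only one of the 5 genes without a read in any C4-2B library. It had 14, 11 and 21 counts in RC4-2B replicates 1 to 3. All RC4-2B libraries lay well clear of 0, and replicate 2 was the lowest. The level in RC4-2B was 0.912 ± 0.305 CPM (SD, n = 3), with a coefficient of variation of 33.4%. Against a floor of 3 counts per C4-2B library, ZG16 was at least 5.27-fold higher. Each count of 0 in C4-2B allows up to 3.69 counts (exact 95% Poisson interval), and the lower bound for the lowest RC4-2B library was 5.49. These counts chose the gene, so nothing is read from the gap between the intervals. The deposited FPKM was 0.264 ± 0.085 in RC4-2B (SD, n = 3), and 41.4% of protein-coding genes had a lower mean there. None of the 2805 exonic windows of 100 bases of ZG16 occurred elsewhere in the genome. ABCB1 had 1 read in a C4-2B library. Of 4143 protein-coding genes at 0 in every C4-2B library, 2 (0.04827%) had at least 4 counts in every RC4-2B library, ZG16 and F13B; F13B, a subunit of coagulation factor XIII, had 11, 4 and 8 counts there, and is named after its values were seen.

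DLGAP2 (ENSG00000198010, chr8:737596-1708474, plus strand) had reads in every library of both lines. It had 3, 2 and 2 counts in C4-2B and 7, 12 and 13 counts in RC4-2B. RC4-2B replicate 1 was the low one of its line, and came nearest to C4-2B. Its TMM-scaled level went from 0.135 ± 0.038 CPM in the parental line to 0.628 ± 0.17 CPM in RC4-2B (SD, n = 3 each). The depth-scaled ratio was 4.7, with a 95% counting interval from 2.04 to 12.6. The intervals of single libraries overlapped between the lines, with an upper bound of 8.77 at 3 counts and a lower bound of 2.81 at 7 counts. With 15159 bases of exons in the file it was the longest of the 5 genes, and its FPKM was the lowest, at 0.008 ± 0.0022 in C4-2B and 0.038 ± 0.011 in RC4-2B (SD, n = 3 each). Its first 511 bases overlap ERICH1 on the other strand. Whether the counting used strand is not given in the sources used here, so reads of ERICH1 in this stretch cannot be told apart from reads of DLGAP2.

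MALRD1 (ENSG00000204740, chr10:19048771-19790401, plus strand) also had reads in every library. It had 2 counts in each C4-2B library and 7, 16 and 8 counts in RC4-2B. C4-2B was even across its libraries, whereas RC4-2B replicate 2 lay well above the others. Its TMM-scaled level went from 0.116 ± 0.0034 CPM in the parental line to 0.607 ± 0.265 CPM in RC4-2B (SD, n = 3 each). It was the only one of the 5 genes with its highest count in RC4-2B replicate 2, the library that stands apart, and without that library it no longer met the rule. The depth-scaled ratio was 5.31, with a 95% counting interval from 2.18 to 15.6. Its FPKM was 0.013 ± 0.00038 in C4-2B and 0.072 ± 0.033 in RC4-2B (SD, n = 3 each). The gene spans 741.6 kb and has 46 exon blocks in the GENCODE 44 annotation, and none of its 100-base exonic windows occurred elsewhere in the genome; the same held for DLGAP2 and LDLRAD1.

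LDLRAD1 (ENSG00000203985, chr1:54007299-54018186, minus strand) had the lowest mean count of the 5 in RC4-2B, 10.0, at the limit of the rule. It had 2, 0 and 3 counts in C4-2B and 5, 10 and 15 counts in RC4-2B. The lines were closest between RC4-2B replicate 1 and C4-2B replicate 3. Its TMM-scaled level went from 0.097 ± 0.088 CPM in the parental line to 0.588 ± 0.285 CPM in RC4-2B (SD, n = 3 each), and its coefficient of variation of 48.4% was the highest of the 5. The depth-scaled ratio was 6.17, with a 95% counting interval from 2.37 to 20.4. In RC4-2B replicate 1 the interval of its 5 counts ran from 1.62 to 11.7 and held the 3 counts of C4-2B replicate 3. Its FPKM was 0.037 ± 0.033 in C4-2B and 0.226 ± 0.109 in RC4-2B (SD, n = 3 each). Without RC4-2B replicate 3 neither LDLRAD1 nor DLGAP2 met the rule.

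Across the RC4-2B libraries, 4 of the 5 genes had their highest count in replicate 3 and 4 had their lowest in replicate 1, and the summed counts were 48, 69 and 80 in replicates 1 to 3. After scaling for depth, BOLA2B had 0.938 CPM in replicate 1 and 1.35 CPM in replicate 3, and LDLRAD1 had 0.313 and 0.881 CPM. For ZG16, MALRD1 and LDLRAD1 the SD of the RC4-2B counts was 5.13, 4.93 and 5.0, above the 3.92, 3.21 and 3.16 of counting alone. For BOLA2B and DLGAP2 it was 4.04 and 3.21, at or under the 4.4 and 3.27 of counting alone. BOLA2B and ZG16 met the rule in each of the 6 sets that left out 1 library.

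On the per-length scale the RC4-2B order was BOLA2B (0.764 FPKM), ZG16 (0.264 FPKM), LDLRAD1 (0.226 FPKM), MALRD1 (0.072 FPKM) and DLGAP2 (0.038 FPKM). BOLA2B had 0.615 to 0.895 FPKM over its RC4-2B libraries and lay above the highest value of every other gene. ZG16 (0.187 to 0.356 FPKM) and LDLRAD1 (0.118 to 0.336 FPKM) did not differ beyond their spread. MALRD1 (0.05 to 0.11 FPKM) lay above DLGAP2 (0.026 to 0.046 FPKM) in each library, and below LDLRAD1.

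The limits of the rule pass through a continuous range of values. Just outside by 4 counts in a C4-2B library were 6 genes, among them PGR, the progesterone receptor, with 4, 4 and 3 counts in C4-2B and 11, 15 and 12 counts in RC4-2B. NHS had 0, 4 and 1 counts in C4-2B and 13, 20 and 5 counts in RC4-2B, and AMPH, a protein of synaptic vesicle recycling, had 4, 2 and 4 against 13, 13 and 6 counts. These genes had RC4-2B means of 12.67, 12.67 and 10.67, as high as those of DLGAP2, MALRD1 and LDLRAD1 inside the limit (10.67, 10.33 and 10.0). Outside by an RC4-2B mean of 9 to under 10 were 4 genes, with PCDH15 the nearest at 9.333 (2, 1 and 0 counts in C4-2B, 10, 6 and 12 in RC4-2B), then HACD1 and NMI at 9.0. PRSS12 was outside by 1 library: it had 1, 0 and 1 counts in C4-2B and 14, 15 and 1 counts in RC4-2B.

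**Figure D4:**
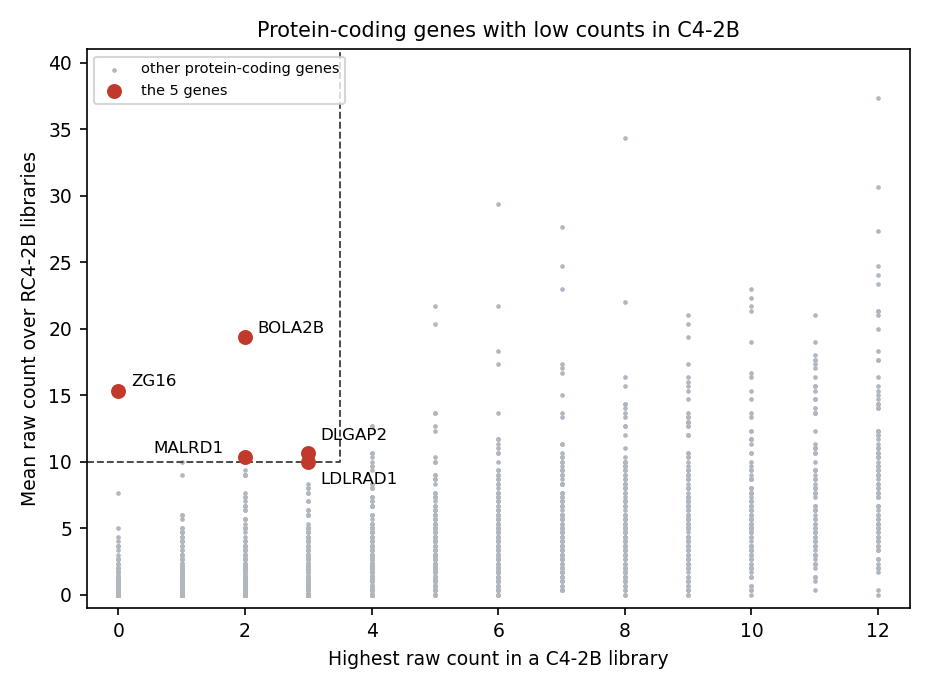
Highest raw count in a C4-2B library (x axis) against mean raw count over the 3 RC4-2B libraries (y axis) for protein-coding genes with at most 12 counts on the x axis; the dashed lines mark the limits of the rule and red points the 5 genes. ABCB1 and 3 further genes above the top of the y axis are not drawn. ZG16 (0 counts in C4-2B) stands clear of both limits, and BOLA2B (at most 2 counts in C4-2B) clear of the y axis limit only. DLGAP2, MALRD1 and LDLRAD1 (means of 10.67, 10.33 and 10.0) lie at the y axis limit.

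The plot of counts around the limits shows that DLGAP2, MALRD1 and LDLRAD1 continue a dense cloud of genes with slightly more reads in C4-2B or slightly fewer in RC4-2B. Being switched on, in the sense of no read in C4-2B, therefore describes ZG16 alone of the 5; DLGAP2 and MALRD1 had reads in all 3 C4-2B libraries, and BOLA2B and LDLRAD1 in some. In the fit over all genes (edgeR quasi-likelihood test, Benjamini-Hochberg adjustment over 15054 genes), 162 genes (1.08%) were higher in RC4-2B and 136 (0.903%) lower, together 298 (1.98%). When 1 library was left out, these counts ran from 13 to 1000 and from 31 to 925, lowest without C4-2B replicate 1 and highest without RC4-2B replicate 2. Only BOLA2B and ZG16 had enough reads to enter it, and both were among the 162, from which nothing is read because this contrast chose them.

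The genes beside the 5 were next examined, as a measure the rule did not use. The nearest tested neighbour on each side within 1 Mb, measured between starts, gave 9 genes. On the higher side of DLGAP2 no tested gene started within that distance, most of which DLGAP2 itself spans (970.9 kb). Of these 9, none rose and 1 fell (edgeR quasi-likelihood test, Benjamini-Hochberg adjustment), 1 (11.1%) passed an unadjusted p of 0.05, beside 21.4% of all genes tested, and DESeq2 gave the same counts. Limma on FPKM tested 6 of them, PLXDC2 not included, and called none. Their median log2 fold change was -0.25, beside 0.01 over all genes tested, and without RC4-2B replicate 2 it was -0.07, beside 0.0.

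The neighbour that fell was PLXDC2, a plexin domain-containing membrane protein encoded at chr10:19816239-20289856 on the plus strand. It lies next to MALRD1, with 767.5 kb between their starts, most of which is the 741.6 kb span of MALRD1 itself. PLXDC2 fell from 6.16 ± 0.791 CPM to 1.28 ± 0.296 CPM (SD, n = 3 each), with a log2 fold change of -2.26 (SE 0.25, edgeR, adjusted p = 0.0053). Leaving out 1 library at a time gave log2 fold changes from -2.38 to -2.08 and adjusted p from 6e-05 to 0.039. MALRD1 was chosen as higher in RC4-2B, so nothing is read from the opposite direction of PLXDC2.

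ZG16 and BOLA2B lie on the same chromosome arm, 414.7 kb apart from start to start. KIF22, a mitotic kinesin, begins 7.7 kb past the end of ZG16 and had 167.1 ± 12.2 CPM in the parental line and 137.3 ± 24.1 CPM in the subclone (SD, n = 3 each), a log2 fold change of -0.28 (SE 0.14, edgeR adjusted p = 0.28). CORO1A, an actin-binding coronin beside BOLA2B, had a log2 fold change of 0.03 (SE 0.3). The outer neighbours, both pseudogenes, were SMG1P5 with 0.45 (SE 0.36) past BOLA2B and SLC7A5P1 with -0.58 (SE 0.6) before ZG16. Between ZG16 and BOLA2B 29 genes were tested, none was called by edgeR, 5 (17.2%) passed an unadjusted p of 0.05, and their median log2 fold change was -0.3 (-0.16 without RC4-2B replicate 2). Around LDLRAD1, the log2 fold change was -0.29 (SE 0.17) for LRRC42 and -0.06 (SE 0.11) for TMEM59, and ERICH1 beside DLGAP2 had -0.25 (SE 0.17).

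Over all 126 tested genes that start within 1 Mb of any of the 5 genes, edgeR called none higher and 1 lower, PLXDC2, and 18 (14.3%) passed an unadjusted p of 0.05, beside 21.4% of all genes tested. DESeq2 called 2 higher, DIO1 and FBXL19-AS1, and 5 lower, and limma on FPKM called none of the 89 it tested, among which PLXDC2 was not. Both DIO1 and FBXL19-AS1 were picked out with these calls known. Over the 126, the median log2 fold change was -0.22, and -0.11 without RC4-2B replicate 2.

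**Figure D5:**
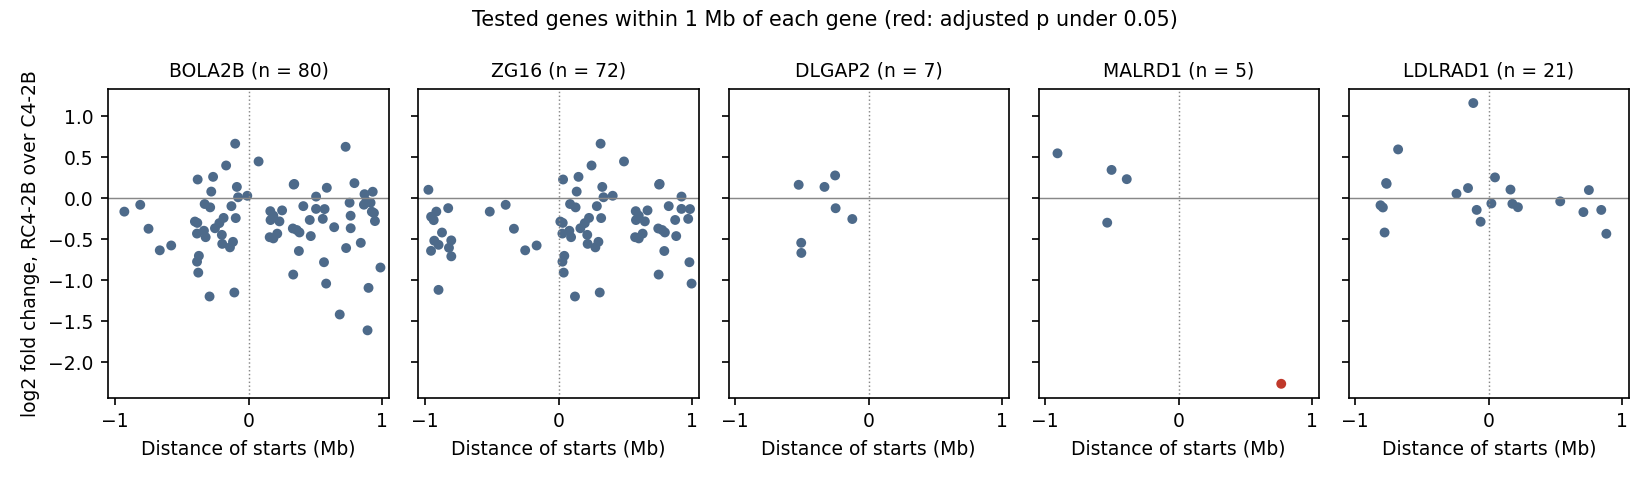
Log2 fold change of RC4-2B over C4-2B (y axis) of each tested gene against the distance between its start and that of BOLA2B, ZG16, DLGAP2, MALRD1 or LDLRAD1 in Mb (x axis), 1 panel per gene; n is the number of genes drawn, and BOLA2B and ZG16 share many of theirs. The only red point, a gene with an edgeR adjusted p under 0.05, is PLXDC2 at -2.26 in the MALRD1 panel.

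None of the 5 genes is on any of 4 gene lists examined beside them, which cover cancer-testis and germline genes, imprinted genes, silencing machinery and developmental transcription factors; the lists are not complete. Of 15054 genes tested, 3220 (21.4%) passed an unadjusted p of 0.05 in edgeR, against which the unadjusted counts of the lists are read. Of 125 cancer-testis and germline genes, 92 had at most 3 counts in every C4-2B library and 86 in all 6 libraries; of 24 tested, 1 rose and 1 fell by edgeR, with 10 (41.7%) at an unadjusted p of 0.05. DESeq2 called 1 higher and 4 lower, and limma on FPKM tested 14 and called none higher and 1 lower. The one that rose, CT45A10 (log2 fold change 2.13, SE 0.36, edgeR adjusted p = 0.026), has near-identical paralogs among which reads may be split. CTAG2 fell (-4.23, SE 0.4, edgeR adjusted p = 0.0025), from 125, 139 and 127 counts to 3, 4 and 13. Of 16 imprinted genes tested, SGCE (2.95, SE 0.29, edgeR adjusted p = 0.0028) and PEG10 (1.43, SE 0.2, edgeR adjusted p = 0.014), which are neighbours on chromosome 7, rose and none fell, with 5 (31.2%) at an unadjusted p of 0.05. DESeq2 gave the same counts, and limma called PEG10 alone, with SGCE not among the 11 genes it tested.

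Genes of the silencing machinery, which write, read or bind DNA methylation and repressive chromatin, were the next group. Of 33 tested, none rose and 1 fell, with 6 (18.2%) at an unadjusted p of 0.05 and a median log2 fold change of 0.05. DESeq2 called none higher and 2 lower, DNMT3A and MBD1. Limma called none higher and 1 lower on log2(FPKM + 1) and none on log2(FPKM + 0.1). MBD1, a protein that binds methylated CpG, fell from 66.5 ± 2.44 CPM to 41.8 ± 3.41 CPM (SD, n = 3 each; log2 fold change -0.67, SE 0.11, edgeR adjusted p = 0.028). The DNA methyltransferases DNMT1 and DNMT3B had log2 fold changes of -0.14 (SE 0.13) and 0.02 (SE 0.17), and DNMT3A had -0.66 (SE 0.17, edgeR adjusted p = 0.092).

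Of 127 developmental transcription factors tested, 2 rose and 3 fell by edgeR, with 34 (26.8%) at an unadjusted p of 0.05. DESeq2 called 3 higher and 9 lower, and limma tested 79 and called PAX5 higher and none lower. PAX5, a regulator of B cell identity, rose (log2 fold change 3.76, SE 0.26, edgeR adjusted p = 0.00048), as did POU3F2, a neural regulator (1.72, SE 0.35, edgeR adjusted p = 0.048). FOXF2 fell from 26, 31 and 34 counts to 0, 0 and 1, OLIG1 from 21, 20 and 17 counts to 1, 2 and 3, and HOXC4 by 1.48 on the log2 scale (edgeR adjusted p = 0.0045, 0.016 and 0.03). Of the 10 genes called in these 4 groups, 4 kept their call in every set that left out 1 library, namely CTAG2, SGCE, FOXF2 and PAX5. CT45A10, HOXC4, MBD1, OLIG1, PEG10 and POU3F2 lost it whichever C4-2B library was left out (edgeR adjusted p from 0.062 to 0.2). POU3F2 also lost it without RC4-2B replicate 1 (edgeR adjusted p = 0.053), and HOXC4, MBD1, OLIG1 and POU3F2 lost it without RC4-2B replicate 3 (edgeR adjusted p from 0.061 to 0.11).

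Markers of other cell types were set beside the 5 genes. Of 8 blood cell markers, 7 never passed 3 counts, with all 8 summing to 0.34 to 0.358 CPM in C4-2B against 0 to 0.352 CPM in RC4-2B. All 3 muscle markers had at most 3 counts in each library. Of 3 basal epithelium markers, KRT5 and TP63 were at 0 in all 6 libraries, and KRT14 had reads. The basal markers summed to 0.239 to 0.968 CPM in C4-2B against 0.285 to 0.5 CPM in RC4-2B. Of 6 neuroendocrine markers, 2 (CHGB and INSM1) stayed at 3 counts or fewer, and the summed level was 8.65 to 10.4 CPM in C4-2B against 7.24 to 10.5 CPM in RC4-2B. Fibroblast markers had 430.8 to 745.5 CPM in C4-2B against 201.9 to 322.8 CPM in RC4-2B, with COL1A2, DCN and LUM at 0 in all libraries. Endothelial markers summed to 7.47 to 8.14 CPM in C4-2B against 3.76 to 5.25 CPM in RC4-2B. Liver markers had 14.6 to 18.3 CPM in C4-2B against 16.7 to 26.1 CPM in RC4-2B, and the part of any of these in the counts of the 5 genes was not tested.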

How the data were processed

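Total RNA of 3 C4-2B and 3 RC4-2B libraries was sequenced. The authors aligned the reads with STAR to GRCh38 and deposited a table of raw read counts and a table of FPKM values (fragments per kilobase of gene, scaled to library size) for the same 58735 genes. The STAR version, the counting tool, its strand setting, its treatment of reads with several placements and the annotation release are not given in the sources used here. Groups and replicate numbers came from the sample titles, and all 6 count columns were matched to samples.

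The 5 genes were found on raw counts. CPM were computed on TMM-scaled library sizes; 3 counts correspond to 0.17 to 0.179 CPM in C4-2B and 0.171 to 0.188 CPM in RC4-2B. Single counts carry exact 95% Poisson intervals, and ratios carry exact binomial ones. The members and gene lists were chosen with earlier results of these data known. Genes named in the text are all 5 members, the 3 genes nearest outside each limit, the nearest tested neighbours and the list genes past the threshold. The DNA methyltransferases, cell type markers that define a list, F13B, DIO1 and FBXL19-AS1 were named outside this rule. Some marker genes of the fixed lists are not reported here.

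The fit over all genes used edgeR 4.0.16 in R 4.3.3 (TMM, filterByExpr with a minimum count of 10, glmQLFit without robust estimation, glmQLFTest, cell line as the only term) adjusted by Benjamini-Hochberg, with a call at 0.05, and was tested on simulated counts. Alternatives were DESeq2 1.42.0, limma 3.58.1 on the deposited FPKM as log2(FPKM + 1) or log2(FPKM + 0.1) where at least 3 libraries had at least 1 FPKM, other scalings and filters, a replicate block, leaving out each library, and other limits of the rule. Sequence copies were sought by matching every exonic window of 100 bases (GENCODE 44 models) to the hg38 genome on both strands. Promoter windows came from RefSeq, matched by symbol for 3 of the 5 genes; ZG16 and DLGAP2 had no entry.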

Additional observations from a re-analysis of the deposited data

How the results depend on the processing

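The count of 5 genes moved with the limits of the rule. A limit of 0 counts in C4-2B left 1 gene (ZG16) and a limit of 5 counts gave 20; a minimum RC4-2B mean of 20 left 0 and of 5 gave 28; all gene types together gave 9. Counts scaled by TMM gave 4, losing DLGAP2, and dropping the minimum for single RC4-2B libraries gave 6. Leaving out 1 library at a time gave 5 to 13 genes. With the lines exchanged (alternatives chosen after seeing the data), the 25 genes became 2 and 48 with limits of 0 and 5, 11 and 61 with means of 20 and 5, 16 with TMM-scaled counts, and 25 to 41 without 1 library; in each of these settings more genes met the rule with the lines exchanged, ABCB1 left aside. Read against 1 count in place of 3, the median ratio of 3.63 became 10.9.

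Calls over all genes depended on the tool and on single libraries. The 162 higher and 136 lower genes became 500 and 402 with DESeq2, 604 and 646 without a filter on low counts, 46 and 58 with limma on log2(FPKM + 1), and 39 and 47 with limma on log2(FPKM + 0.1). Without 1 library, 13 to 1000 were higher and 31 to 925 lower, the lowest without C4-2B replicate 1 and the highest without RC4-2B replicate 2. Of the 5 genes, the 2 called became 1 with DESeq2, 1 with a mean of at least 10 counts (where 1 was tested), and 0 to 2 without 1 library, 0 without any C4-2B library or RC4-2B replicate 3; limma gave no value, as all were under 1 FPKM. The 1 called neighbour, PLXDC2, was not tested in the limma fits, which called 0. Within 0.1 Mb between starts 0 were called, and PLXDC2 lies beyond that by this measure, which includes the long span of MALRD1. The 10 called list genes became 21 with DESeq2, 26 without a filter, 4 and 3 in the limma fits (where FOXF2, OLIG1, POU3F2 and SGCE were not tested), and 4 to 36 without 1 library. RLE and upper-quartile scaling kept each of these counts within 1.5 times.

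With the replicate number as a block, 55 genes were higher and 74 lower, 0 of the 5 genes and 5 list genes (CTAG2, FOXF2, PAX5, PEG10 and SGCE) were called, and PLXDC2 kept its call (edgeR adjusted p = 0.017). Deviations from the line means correlated between same-numbered libraries at 0.318, 0.178 and -0.0691 for replicates 1 to 3. Libraries with different numbers were not compared in this way, so whether the numbers pair the cultures cannot be told.

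At 15707134 to 18052517 counts per library, 3 counts of a gene in a single library cannot be told from 0 counts there. Of the 5 genes, 3 were too low for the fit over all genes. The cause of these changes between settings was not tested.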

Other observations

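Beside the 5 protein-coding genes, 4 genes of other types met the same limits; they were chosen after their values were seen. ALOX12P2, a transcribed unprocessed pseudogene of an arachidonate lipoxygenase (chr17:6853861-6954107, plus strand), had no read in any C4-2B library and 13, 13 and 18 counts in RC4-2B. SBF2-AS1, an antisense transcript (chr11:9758292-9811335, plus strand), had 2, 3 and 3 counts in C4-2B and 10, 12 and 12 counts in RC4-2B. BHLHE40-AS1, also antisense (chr3:4896809-4979961, minus strand), had 2 counts in each C4-2B library and 6, 14 and 10 counts in RC4-2B. The processed pseudogene AL591866.1 (chr1:6547905-6548619, plus strand) had 1, 2 and 3 counts in C4-2B and 9, 12 and 9 counts in RC4-2B. Like ZG16, ALOX12P2 combined 0 reads in every C4-2B library with more than 10 in each RC4-2B library. Without a known strand setting, reads of the antisense genes and of their partners cannot be told apart, and pseudogenes can share reads with their parent genes.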
